A study of Mus musculus with 12 samples.

Results

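Back skin of 3 mice labelled Lcn2-/- and treated with imiquimod (IMQ) cream was compared with back skin of 3 WT mice treated in the same way, which is 6 of the 12 bulk RNA-seq libraries of the study. All genes with enough reads to test entered the comparison, 18529 of the 56923 listed. The mice were females aged 8 to 10 weeks on a C57BL/6 background, and the WT mice were littermates. The knockout is described as global, not limited to a cell type. The IMQ groups received 5% IMQ cream on shaved back skin for 6 days. The control groups of each genotype, also 3 mice each, were given vehicle cream by the study's methods, while their labels give the treatment as none. The labels name the genotype KO in one field and a knockdown in another, and the mice are called KO-labelled here. The labels number the samples within a group without saying whether skin was pooled or which mice shared a litter, each library is called a mouse here, and p-values measure the spread between these libraries, which may be technical.

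IMQ is a ligand of Toll-like receptor 7 (TLR7), and IMQ cream produces psoriasis-like thickening, scaling and inflammation of mouse skin, in which IL-23 and IL-17 from immune cells act on keratinocytes. Keratinocytes answer with stress keratins, antimicrobial proteins, ligands of the EGF receptor and cytokines of the IL-1, IL-17C and IL-20 families, which pass the signal on to other keratinocytes and to immune cells. Lcn2 (lipocalin-2) is a secreted protein that binds bacterial siderophores and is made by keratinocytes and neutrophils in inflamed skin.

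Lcn2 itself was counted in every KO-labelled library. Its raw counts were 1010, 2723 and 1572 in WT IMQ mice 1, 2 and 3 and 561, 511 and 830 in KO-labelled IMQ mice 1, 2 and 3. In CPM, counts per 1000000 of the normalized library, this is 61.2, 183 and 76.1 against 34.3, 29.9 and 49.8. The IMQ groups did not overlap, but the difference did not pass adjustment (log2 fold change -1.49 ± 0.40, adjusted p 0.0525), and every KO-labelled IMQ mouse was above all control mice. In the controls Lcn2 was at 6.28, 8.64 and 4.57 CPM in WT mice and 10.5, 9.22 and 15.9 CPM in KO-labelled mice. Which exons the line lacks is not given in the sources used here, so the total count of the gene does not check the genotype, and each direction drawn from the label rests on the label. The gene lies at chr2:32384633-32388252 (GRCm38, minus strand), and its RefSeq promoter window (250 bases before to 50 after the transcript start, GRCm38.p6, chr2:32387690-32387989, minus strand) is shown because the gene defines the comparison. Capitals mark a match to the C/EBP motif TTGCNNAA, and no match to AP-1, STAT, CRE or NF-kappaB was found in it.
Lcn2: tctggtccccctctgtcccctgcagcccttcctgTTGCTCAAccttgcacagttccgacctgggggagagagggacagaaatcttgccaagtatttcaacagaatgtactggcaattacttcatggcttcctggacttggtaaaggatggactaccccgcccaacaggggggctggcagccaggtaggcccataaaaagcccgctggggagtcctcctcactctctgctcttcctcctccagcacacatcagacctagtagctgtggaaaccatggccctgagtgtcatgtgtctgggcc

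The 6 IMQ libraries held between 16448226 and 21337921 counts. Keratin Krt14, the defining keratin of basal epidermis, was at 16988, 10042 and 15224 CPM in the WT IMQ mice. The extraction protocol in the labels speaks of retina, but 11 of 14 retina markers were too low to test and 0 of the other 3 passed in edgeR (1 at an unadjusted p under 0.05, and 0 in DESeq2). WT IMQ mouse 2 stood apart from WT IMQ mice 1 and 3. In a principal component analysis of the 6 libraries, the component that held 44.9% of the variance placed WT IMQ mice 1 and 3 at -58.7 and -61.9, WT IMQ mouse 2 at 7.94 and KO-labelled IMQ mice 1 and 3 at 29.1 and 33.6, with mouse 2 above these. Gene classes moved with the same split, a pattern chosen after its values were seen. The 320 unverified transcripts (annotated TEC) had a mean log2 CPM of 0.45 and 0.41 in WT IMQ mice 1 and 3, -0.22 in WT IMQ mouse 2 and between -0.52 and -0.20 in the KO-labelled IMQ mice. The 558 antisense genes were at 0.32 and 0.43 in WT IMQ mice 1 and 3, -0.14 in mouse 2 and between -0.33 and -0.093 in the KO-labelled mice. The part of this split in the results was not tested.

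With edgeR's quasi-likelihood test and Benjamini-Hochberg adjustment, 405 genes were higher and 481 lower in the KO-labelled IMQ mice (2.19% and 2.6% of the genes tested). When a call was instead a fold of more than 2 with unadjusted p under 0.05, 574 genes were higher (3.1%) and 621 lower (3.35%), of which only 476 and 282 are protein-coding. The adjusted calls were mostly of moderate size and close to the threshold: the smallest adjusted p was 0.0077, and 142 of the called rises and 137 of the called falls exceeded 2-fold. The groups did not overlap for 878 of the 886 called genes and for 33.3% of all genes tested. The number of calls changed with single libraries, while the median absolute log2 fold change of the 886 genes was 0.81 with all mice, between 0.73 and 0.91 when 1 IMQ mouse was left out and 0.81 when 1 control mouse was left out. Without WT IMQ mouse 2, 1288 genes were higher and 1438 lower (6.69% and 7.47% of the 19248 genes then tested), and 872 of the 886 called genes were called in the same direction. Without WT IMQ mouse 1 or mouse 3, 0 genes passed adjustment in edgeR (1434 and 1503 were higher and 1675 and 1980 lower at an unadjusted p under 0.05). Without KO-labelled IMQ mouse 1, 4 genes passed (Cxcr4 higher, and Ptgr1, Cish and Tnk1 lower, named after their values were seen). Without KO-labelled IMQ mouse 2, Cxcr4 was the 1 gene that passed. Without KO-labelled IMQ mouse 3, 0 passed in edgeR (2064 higher and 2261 lower at an unadjusted p under 0.05). Without WT control mouse 1, WT control mouse 2 or KO-labelled control mouse 3, 276, 1259 and 311 passed. Each of these fits leaves 2 mice in a group, and all 886 called genes kept their direction in each of them. The 886 genes were called on the same mice. Where groups do not overlap, as in 878 of them, leaving out a mouse keeps the order of the groups. The kept directions were nearly fixed in advance, and neither they nor the median size are a separate check of the calls. DESeq2 on the same 12 mice called 1198 genes higher and 1261 lower.

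**Figure D1:**
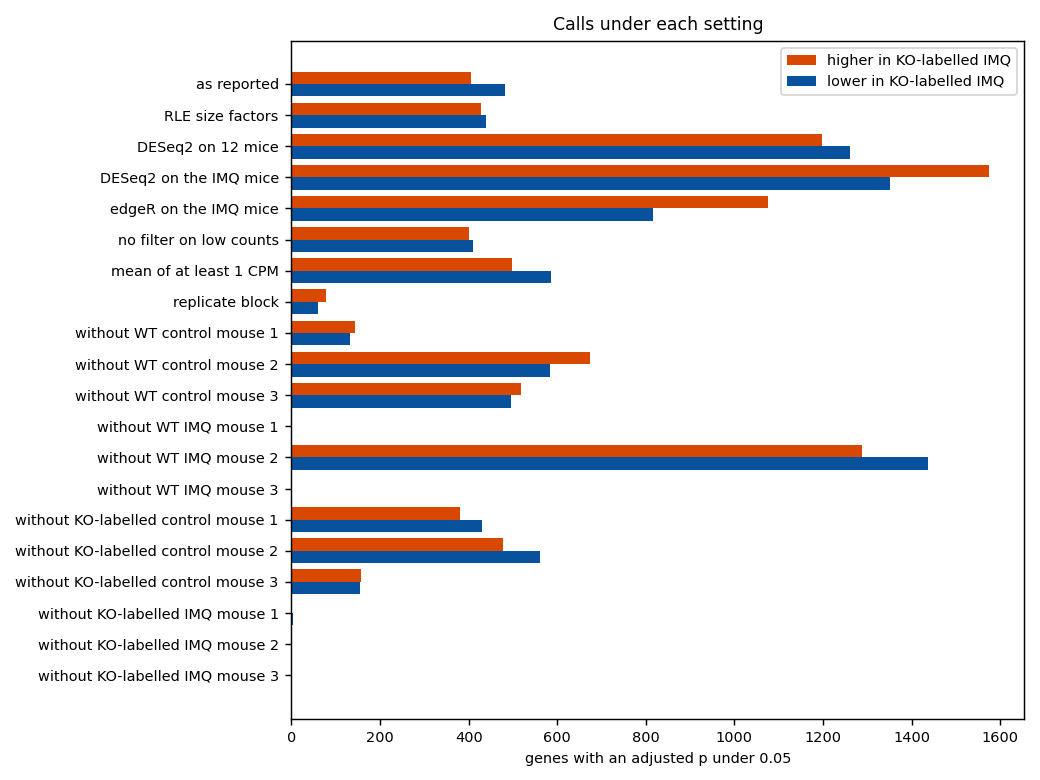
Number of genes with an adjusted p under 0.05 (x axis) in the comparison of KO-labelled with WT IMQ mice, higher and lower, for the fit as reported and for each alternative (y axis). The bars are near 0 when WT IMQ mouse 1 or 3 or any KO-labelled IMQ mouse is left out, and reach 1288 higher and 1438 lower genes without WT IMQ mouse 2.

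**Figure D2:**
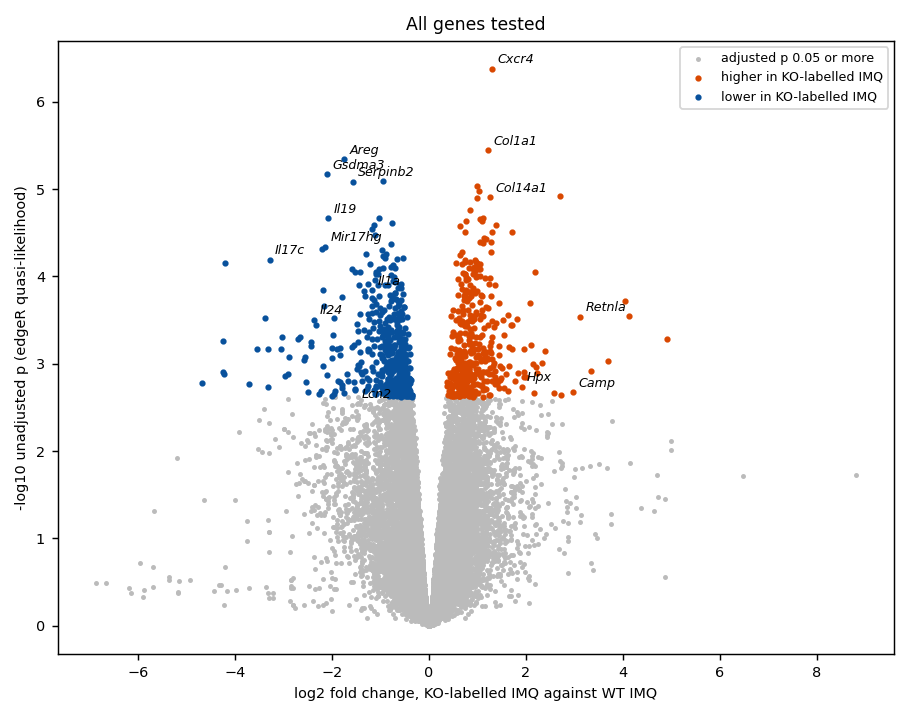
Log2 fold change of the 18529 genes tested (x axis) against the unadjusted p on a -log10 scale (y axis), with the 405 higher and 481 lower genes in colour and a set of genes of the text named. Cxcr4 has the smallest p, and Lcn2 lies just under the coloured range.

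Ligands of the EGF receptor, which keratinocytes secrete to drive their own growth and migration, were lower in the KO-labelled IMQ mice. Of the 12 tested members of the list of ligands and receptors, 4 fell (33.3%) and 0 rose, with a median log2 fold change of -0.81 (all genes tested, -0.02). Over all genes tested 2.6% fell and 2.19% rose, and in the lists below 1 call can lie near these shares. Areg (amphiregulin) was at 53.3, 57.3 and 65.1 CPM in WT IMQ mice 1, 2 and 3 and at 18.2, 17.1 and 17.2 CPM in KO-labelled IMQ mice 1, 2 and 3. The groups lay far apart, and the KO-labelled values were nearly equal (log2 fold change -1.75 ± 0.22, adjusted p 0.0215). Epgn (epigen) was at 228, 226 and 218 CPM in the WT and 76.6, 102 and 70.0 CPM in the KO-labelled mice, again without overlap (log2 fold change -1.44 ± 0.25, adjusted p 0.0222). Ereg (epiregulin) was at 198, 162 and 113 and 64.0, 88.0 and 46.6 CPM (log2 fold change -1.25 ± 0.27, adjusted p 0.0352). Hbegf (heparin-binding EGF-like growth factor) was at 155, 126 and 129 and 49.5, 62.3 and 99.1 CPM (log2 fold change -0.96 ± 0.22, adjusted p 0.0365), and the highest KO-labelled value, in mouse 3, was the closest to the WT range.

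In the control mice these ligands were low in both genotypes, with Areg at 5.45, 3.27 and 4.73 CPM in WT and 5.71, 8.74 and 4.96 CPM in KO-labelled mice and Epgn at 7.76, 12.4 and 5.80 and 18.3, 19.5 and 11.8 CPM. The genotype difference in Areg with IMQ minus that without IMQ was -2.27 on the log2 scale (interaction, adjusted p 0.0170). Areg, Epgn and Ereg are neighbours on chromosome 5, with Areg at chr5:91139599-91148432 and Epgn at chr5:91027464-91035215. Their promoter windows from RefSeq (GRCm38.p6, chr5:91139349-91139648 and chr5:91027267-91027566, both plus strand) are shown because the pair moved together. No window was given for Ereg. The capitals in Areg mark the CRE motif TGACGTCA, which was added to the search after this window had been read, and Epgn had no match to any motif searched.
Areg: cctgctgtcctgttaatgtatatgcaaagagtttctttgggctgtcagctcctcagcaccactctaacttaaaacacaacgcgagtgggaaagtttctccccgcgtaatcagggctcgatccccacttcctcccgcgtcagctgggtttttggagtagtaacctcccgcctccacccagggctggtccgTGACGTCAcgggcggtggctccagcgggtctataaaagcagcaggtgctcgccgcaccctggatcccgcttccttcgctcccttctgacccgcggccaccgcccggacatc
Epgn: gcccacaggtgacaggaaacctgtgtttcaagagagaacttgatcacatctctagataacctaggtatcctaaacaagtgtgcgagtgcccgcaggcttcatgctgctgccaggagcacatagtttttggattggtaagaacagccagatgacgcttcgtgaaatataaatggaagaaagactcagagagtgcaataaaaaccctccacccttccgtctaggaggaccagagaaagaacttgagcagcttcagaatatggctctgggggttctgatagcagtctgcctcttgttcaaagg

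Among the 12647 tested genes with a promoter window, 3.21% held the CRE motif, against 17 of 340 genes that fell (5.0%) and 4 of 311 that rose (1.29%). The CRE motif was picked from the window of Areg, which is counted among the genes that fell. Its shares are therefore not an independent result. The AP-1 motif TGANTCA stood in 7.34% of the windows of all tested genes, in 6.76% of those that fell and in 5.14% of those that rose. Both strands were searched, and matches of different motifs may overlap.

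Some cytokines that keratinocytes make fell in the same mice. Il19 and Il24, IL-20 subfamily cytokines that signal to keratinocytes through STAT3, were the 2 members of their list of 9 tested genes that fell, and 0 rose. Il19 was at 46.9, 71.8 and 43.9 CPM in WT IMQ mice 1, 2 and 3 and 10.01, 11.8 and 16.6 CPM in KO-labelled IMQ mice 1, 2 and 3, without overlap (log2 fold change -2.08 ± 0.31, adjusted p 0.0219). Il24 was at 12.6, 17.3 and 12.9 and 2.20, 1.93 and 4.20 CPM, a 5.14-fold lower level (log2 fold change -2.36 ± 0.44, adjusted p 0.0276). Both genes are nearly silent without IMQ, with Il19 at 0.0462, 0.129 and 0.160 CPM in WT and 0.131, 0 and 0.179 CPM in KO-labelled controls, and Il24 at 0, 0 and 0 and 3, 0 and 0 raw counts. Il20, the gene of the same chromosome 1 cluster that was too low to test, had 13, 33 and 9 raw counts in WT IMQ mice 1, 2 and 3 and 5, 4 and 3 in KO-labelled IMQ mice 1, 2 and 3. The receptors Il10ra and Il10rb were not called, at log2 fold changes of 0.85 and 0.56 (adjusted p 0.131 and 0.156), and without WT IMQ mouse 2 the median of the list turned from -0.26 to 0.22. The promoter window of Il19 (RefSeq, GRCm38.p6, chr1:130940066-130940365, minus strand) is shown as that of the larger of these changes with a window given. Its capitals mark, in order, a match to the STAT motif TTCNNNGAA and a match to the NF-kappaB motif.
Il19: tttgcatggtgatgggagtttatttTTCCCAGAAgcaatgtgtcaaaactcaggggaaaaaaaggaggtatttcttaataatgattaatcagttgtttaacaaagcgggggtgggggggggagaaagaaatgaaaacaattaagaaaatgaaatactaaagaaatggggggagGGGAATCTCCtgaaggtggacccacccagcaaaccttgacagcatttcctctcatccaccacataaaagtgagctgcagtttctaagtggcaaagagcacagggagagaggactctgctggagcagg

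The STAT motif stood in 8.38% of the windows of all tested genes, in 8.53% of those that fell and in 6.11% of those that rose. The NF-kappaB motif stood in 6.29%, 7.65% and 5.79% of them, and the C/EBP motif in 10.9%, 9.71% and 12.2%.

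In the list of the IL-17 and IL-23 axis 3 of the 17 tested genes fell, Il17c, Il17rc and Zc3h12a, and 0 rose. At an unadjusted p under 0.05, 1 was higher and 7 were lower, and DESeq2 called 1 higher and 4 lower. The log2 fold changes of the list ran from -3.29 to 1.54. Il17c, the IL-17 cytokine that epithelial cells make, was at 2.00, 1.88 and 2.13 CPM in WT IMQ mice 1, 2 and 3 and 0.244, 0.117 and 0.240 CPM in KO-labelled IMQ mice 1, 2 and 3 (log2 fold change -3.29 ± 0.55, adjusted p 0.0219), from 33, 28 and 44 and 4, 2 and 4 raw counts. Its level in the KO-labelled IMQ mice lay within the range of the KO-labelled controls (0.263, 0.107 and 0.0893 CPM). Il17rc, a subunit of the IL-17 receptor, was at 89.8, 80.7 and 87.2 and 63.6, 58.3 and 63.4 CPM (log2 fold change -0.48 ± 0.11, adjusted p 0.0414). Zc3h12a, an RNase induced by IL-17, was at 152, 152 and 131 and 106, 76.7 and 90.5 CPM (log2 fold change -0.67 ± 0.17, adjusted p 0.0456).

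The cytokines of immune cells in that list did not pass. Il17a was at 0.606, 1.28 and 0.484 CPM in the WT and 0.733, 1.64 and 2.04 CPM in the KO-labelled IMQ mice, with overlap (log2 fold change 0.91 ± 0.64, adjusted p 0.373). Il17f was at 2.91, 5.51 and 2.86 and 2.38, 2.40 and 2.10 CPM (log2 fold change -0.71 ± 0.35, adjusted p 0.216). Il23a was at 2.30, 1.95 and 1.40 and 0.794, 0.994 and 1.62 CPM (log2 fold change -0.72 ± 0.50, adjusted p 0.372). Il22 had few reads, with 16, 14 and 14 raw counts in the WT and 8, 0 and 0 in the KO-labelled mice. The groups did not overlap, and KO-labelled mice 2 and 3 lay under the floor of 3 counts.

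Of the IL-1 and IL-36 family, Il1a and Il1rn fell and 0 of 19 rose. Il1a, an alarmin released by damaged keratinocytes, was at 68.2, 52.1 and 47.9 CPM in the WT and 26.8, 26.2 and 21.7 CPM in the KO-labelled IMQ mice, without overlap (log2 fold change -1.17 ± 0.21, adjusted p 0.0237). Il1rn, the antagonist of the same receptor, was at 129.7, 138 and 120.4 and 84.7, 52.3 and 82.3 CPM (log2 fold change -0.82 ± 0.18, adjusted p 0.0353). Il1b, made mainly by myeloid cells, was at 21.4, 86.2 and 99.5 and 79.3, 30.0 and 73.1 CPM, with full overlap (log2 fold change -0.18 ± 0.49, adjusted p 0.840). Among 14 genes of the IL-6 family and STAT3, 2 fell and 0 rose in edgeR (2 higher and 4 lower at an unadjusted p under 0.05, and 1 higher and 3 lower in DESeq2). The list held 9 negative and 5 positive log2 fold changes, and the members given next are among the negative ones. Clcf1, a ligand of the CNTF receptor, was at 72.5, 25.5 and 77.5 and 10.5, 11.9 and 22.8 CPM (log2 fold change -1.96 ± 0.38, adjusted p 0.0276), with WT IMQ mouse 2 the lowest of its group. Osmr, the oncostatin M receptor, was at 178, 147 and 133 and 73.5, 76.9 and 94.0 CPM (log2 fold change -0.91 ± 0.20, adjusted p 0.0350). Stat3 itself was at 389.8, 401 and 359.6 and 267, 270.4 and 313 CPM (log2 fold change -0.43 ± 0.13, adjusted p 0.0747). Il6 was at 3.51, 3.23 and 4.60 and 0.672, 1.70 and 1.499 CPM (log2 fold change -1.55 ± 0.75, adjusted p 0.207).

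Ccl20, the ligand that draws CCR6-bearing T cells and dendritic cells, was the 1 called member among 32 CC chemokines, CXCR3 ligands and receptors. That is 3.12%, near the 2.6% of all genes tested that fell. Ccl20 was at 6.24, 8.54 and 4.60 CPM in the WT and 1.53, 2.34 and 0.360 CPM in the KO-labelled IMQ mice (log2 fold change -2.19 ± 0.50, adjusted p 0.0393). In the controls it was at 5.91, 7.57 and 4.04 CPM in WT and 11.4, 8.74 and 16.1 CPM in KO-labelled mice, the opposite order, and the interaction was -3.23 (adjusted p 0.0423). Of 12 genes of neutrophil-recruiting chemokines and colony-stimulating factors 0 passed in edgeR (1 higher and 2 lower at an unadjusted p under 0.05, and 1 higher and 1 lower in DESeq2). The list held 8 positive and 4 negative log2 fold changes, with a median of 0.32. The members given next are among the negative ones. Cxcl1 was at 14.8, 17.9 and 20.97 and 3.79, 6.84 and 6.48 CPM (log2 fold change -1.65 ± 0.60, adjusted p 0.111). Csf3 (G-CSF) was at 6.06, 4.71 and 3.34 and 0.977, 1.11 and 0.540 CPM (log2 fold change -2.41 ± 0.93, adjusted p 0.140). Both were without overlap. Cxcl2 was at 5.94, 33.1 and 53.7 and 40.7, 12.2 and 21.7 CPM, with overlap (log2 fold change -0.32 ± 0.73, adjusted p 0.815). In the list of TWEAK, TNF and NF-kappaB, Rel, an NF-kappaB subunit, was the 1 of 25 genes that fell (4.0%, near the 2.6% of all genes tested). It was at 44.1, 44.0 and 44.6 against 34.5, 27.0 and 30.7 CPM (log2 fold change -0.53 ± 0.11, adjusted p 0.0341). Tnfrsf12a, the TWEAK receptor, was at 68.2, 68.8 and 61.5 and 33.9, 51.4 and 35.5 CPM (log2 fold change -0.72 ± 0.19, adjusted p 0.0525). Its ligand Tnfsf12 was at 7.33, 13.6 and 8.04 and 20.2, 17.8 and 17.0 CPM (log2 fold change 0.93 ± 0.31, adjusted p 0.0935). Neither overlapped between the groups. In the fit without WT IMQ mouse 2, 4 genes of this list rose and 2 fell, and its median turned from -0.034 to 0.16. The median of the CC chemokine list turned likewise from -0.012 to 0.50, with 2 fallen.

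**Figure D3:**
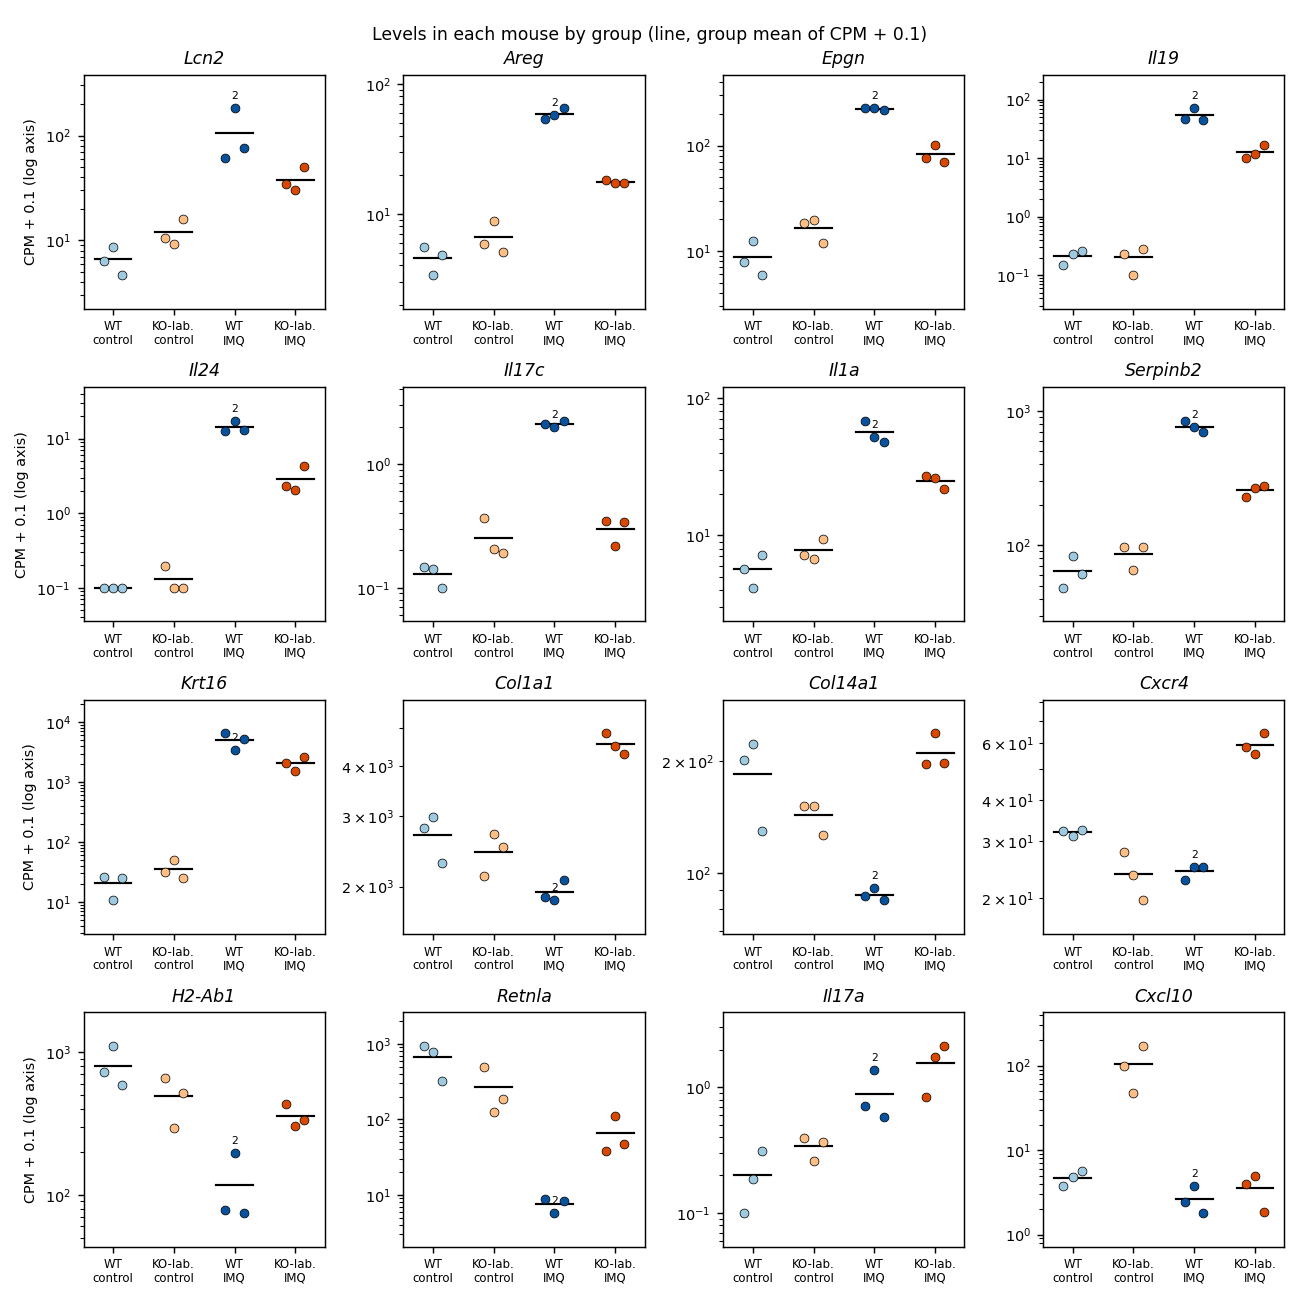
Level of 16 genes in each mouse as CPM plus 0.1 on a log axis (y axis) in the 4 groups (x axis), with the group mean as a line and WT IMQ mouse 2 marked. Areg, Epgn, Il19, Il24, Il17c, Il1a and Serpinb2 lie lower in all 3 KO-labelled IMQ mice than in all 3 WT IMQ mice, Col1a1, Col14a1, Cxcr4, H2-Ab1 and Retnla higher, and Il17a and Cxcl10 overlap.

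Few keratin and cornified envelope genes passed adjustment: 0 of 4 stress keratins, 0 of 10 basal and suprabasal keratins and 1 of 53 envelope genes fell in edgeR (1.89% of the envelope genes, against 2.6% of all genes tested). Stress keratins, which thickened epidermis makes, had a median log2 fold change of -1.29 over 4 genes, of which 0 passed in edgeR (3 at an unadjusted p under 0.05, and 3 in DESeq2). Krt16 was at 6535, 3401 and 5164 CPM in WT IMQ mice 1, 2 and 3 and 2110.5, 1564 and 2612 CPM in KO-labelled IMQ mice 1, 2 and 3, without overlap (log2 fold change -1.26 ± 0.37, adjusted p 0.0690). Krt17 was at 1254, 1358 and 1161 and 359.6, 532 and 768 CPM (log2 fold change -1.18 ± 0.32, adjusted p 0.0542). Krt6a was at 4208, 1961 and 3786 and 1003, 1205 and 1816 CPM (log2 fold change -1.31 ± 0.38, adjusted p 0.0652). In each of Krt16, Krt6a and Krt6b the value of WT IMQ mouse 2 was the lowest of the WT group, and for Krt6b it was below the highest KO-labelled value (7171, 2600.5 and 5983 and 1694, 1609 and 2910.3 CPM, log2 fold change -1.34 ± 0.76, adjusted p 0.278). With WT IMQ mouse 2 left out, 2 of the 4 stress keratins and 1 of the 10 others passed, all lower. Krt6a and Krt6b are near-identical copies between which reads could be split. Of the 10 basal and suprabasal keratins, 2 were lower at an unadjusted p under 0.05, and 1 was called lower in DESeq2. Among the basal keratins, Krt14 was at 8613, 6027 and 7749 CPM in the KO-labelled IMQ mice, below all WT values given above (log2 fold change -0.92 ± 0.24, adjusted p 0.0509), and Krt5 was at 4114, 4089 and 4461 and 3472, 2313 and 2620.1 CPM (log2 fold change -0.59 ± 0.23, adjusted p 0.124). The suprabasal keratin Krt1 was at 9302, 7863 and 8939 and 8229.9, 4612 and 2853 CPM (log2 fold change -0.73 ± 0.34, adjusted p 0.187), and Krt10 had a log2 fold change of -0.60 ± 0.33 (adjusted p 0.260). Krt10 was at 5386, 4771 and 5541 CPM in the WT mice and below that range in KO-labelled mice 2 and 3 but not 1 (5396, 3164 and 1802 CPM).

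Serpinb2, a clade B serine protease inhibitor (PAI-2) of upper keratinocytes, had one of the 5 smallest p-values among the lower genes. It was at 846, 758 and 691 CPM in the WT and 227, 269 and 274 CPM in the KO-labelled IMQ mice (log2 fold change -1.57 ± 0.21, adjusted p 0.0215), and at 48.2, 83.8 and 61.1 and 97.5, 65.1 and 96.6 CPM in the controls. All 12 clade B serpins had negative log2 fold changes, with a median of -0.92, and 3 fell: Serpinb2, Serpinb3b and Serpinb6c. Serpinb3b, a member of a cluster of near-identical copies, was at 248, 197 and 236 and 104, 80.0 and 118 CPM (log2 fold change -1.18 ± 0.26). Serpinb6c was at 92.3, 46.6 and 63.6 and 32.7, 36.3 and 37.4 CPM (log2 fold change -0.93 ± 0.21). Of 22 epidermal serine proteases, Prss27 (138, 88.9 and 99.6 and 54.8, 41.5 and 65.9 CPM, log2 fold change -1.01 ± 0.20, adjusted p 0.0293) and Klk11, a kallikrein (121, 72.9 and 90.4 and 59.7, 41.1 and 48.6 CPM, log2 fold change -0.93 ± 0.20, adjusted p 0.0346), fell and 0 rose. Of 17 desmosome genes, Dsg3 and Dsc3, a desmoglein and a desmocollin of the lower epidermis, fell. Dsg3 was at 621, 436 and 585 and 231, 214 and 329 CPM (log2 fold change -1.09 ± 0.27, adjusted p 0.0465). Dsc3 was at 823, 609.7 and 850.2 and 475, 356 and 408 CPM (log2 fold change -0.88 ± 0.23, adjusted p 0.0492). Without WT IMQ mouse 2, 5 of the 12 serpins and 5 of the 17 desmosome genes fell.

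Of 53 cornified envelope genes, Tgm1, the transglutaminase that cross-links the envelope, was the called member, at 273, 212 and 228 and 117, 100.03 and 147 CPM (log2 fold change -0.97 ± 0.21, adjusted p 0.0347). The list ran both ways, with 38 negative and 15 positive log2 fold changes and a median of -0.19. Sprr2a2 was at 105, 88.0 and 64.3 and 22.0, 26.1 and 16.7 CPM (log2 fold change -1.99 ± 0.54, adjusted p 0.0546). Lor (loricrin) was at 209, 268 and 138 and 481, 348 and 236 CPM (log2 fold change 0.79 ± 0.33, adjusted p 0.154). Without WT IMQ mouse 1 the sign of this median changed. The 25 genes of barrier lipid synthesis included 0 called in edgeR (1 higher and 13 lower at an unadjusted p under 0.05, and 0 higher and 4 lower in DESeq2), and 1 higher and 5 lower without WT IMQ mouse 2. Abca12, the lipid transporter of lamellar granules, was at 484, 307 and 303 and 245, 206 and 204 CPM (log2 fold change -0.74 ± 0.19, adjusted p 0.0506). The alarmins S100a8 (1865, 4108 and 2271 and 3472, 1463 and 4196 CPM, log2 fold change 0.15 ± 0.56, adjusted p 0.894) and S100a9 (4086, 5919 and 4327 and 4724, 2149 and 5805 CPM, log2 fold change -0.18 ± 0.45, adjusted p 0.835), made by keratinocytes and neutrophils, overlapped fully. The 24 genes of antimicrobial proteins and alarmins had a median of -0.28, with 1 that rose and 0 that fell. Of 39 cell cycle genes 37 had negative log2 fold changes (median -0.35), but 0 passed in edgeR or in DESeq2, and 1 had an unadjusted p under 0.05. Mki67, a marker of cycling cells, was at 282, 202 and 258 and 194, 179.9 and 149 CPM (log2 fold change -0.51 ± 0.40, adjusted p 0.440).

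Some genes of glucose use and of cholesterol synthesis were lower by less than 2-fold. Of 22 glycolysis and glucose uptake genes, 4 fell and 0 rose. Hif1a, the hypoxia-inducible factor that drives glycolytic genes, was at 417, 394 and 400.5 CPM in the WT and 271, 222 and 282 CPM in the KO-labelled IMQ mice (log2 fold change -0.64 ± 0.12, adjusted p 0.0234). Pfkp, a phosphofructokinase, was at 253, 194 and 254 and 142, 118 and 143 CPM (log2 fold change -0.80 ± 0.16, adjusted p 0.0276). The lactate transporter Slc16a1 fell too (104, 99.3 and 94.5 and 66.8, 54.5 and 61.4 CPM, log2 fold change -0.70 ± 0.13), as did the kinase Pgk1 (544, 412 and 515 and 309, 299 and 336 CPM, log2 fold change -0.64 ± 0.14). In the fit without WT IMQ mouse 2, 7 of the 22 fell. Among 24 genes of cholesterol synthesis, 22 had negative log2 fold changes (median -0.48), and 1 fell (4.17%, near the 2.6% of all genes tested). This was Hsd17b7 (111, 102 and 91.7 and 55.4, 53.8 and 52.8 CPM, log2 fold change -0.91 ± 0.18, adjusted p 0.0285). Myc, the growth-promoting transcription factor, was the called member of 28 genes of MAPK feedback and AP-1 (3.57%, near the 2.6% of all genes tested that fell). It was at 92.2, 111 and 100.4 and 75.7, 64.3 and 73.5 CPM (log2 fold change -0.51 ± 0.12, adjusted p 0.0390). Bhlhe40, a clock repressor, was the called member of 19 clock genes (145, 148 and 157 and 103, 80.4 and 88.1 CPM, log2 fold change -0.72 ± 0.13, adjusted p 0.0219).

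Other genes among the 12 largest falls or the 5 smallest p-values belong to none of these lists. Gsdma3, a gasdermin of the epidermis and hair follicle, was at 5.09, 4.23 and 5.18 CPM in the WT and 1.22, 1.23 and 0.899 CPM in the KO-labelled IMQ mice (log2 fold change -2.11 ± 0.28, adjusted p 0.0215), and in the controls at 8.78, 11.6 and 14.04 and 17.8, 13.1 and 23.0 CPM. Mir17hg, the host transcript of the miR-17 to miR-92 cluster, was at 33.8, 12.8 and 30.9 and 6.59, 5.14 and 5.82 CPM (log2 fold change -2.14 ± 0.34, adjusted p 0.0219), with WT IMQ mouse 2 lower than WT IMQ mice 1 and 3. Rin1, a RAS effector, was at 40.5, 31.5 and 40.8 and 17.3, 18.1 and 19.5 CPM (log2 fold change -1.04 ± 0.15, adjusted p 0.0219). The uncharacterised E330009J07Rik was at 60.8, 53.5 and 48.0 and 28.6, 24.6 and 31.0 CPM (log2 fold change -0.95 ± 0.13, adjusted p 0.0215). Ccdc187 was at 6.06, 3.70 and 4.99 and 1.59, 0.935 and 0.660 CPM (log2 fold change -2.21 ± 0.36). Mroh3 was at 2.30, 1.41 and 4.21 and 0.672, 0.175 and 0.360 CPM (-2.71 ± 0.57), and Ceacam12 at 2.73, 2.82 and 1.99 and 0.733, 0.585 and 0.540 CPM (-2.01 ± 0.44). No overlap was a condition for the 12 largest falls and the 12 largest rises, so the separation of the groups in these genes is not a separate result. Plet1os, antisense to Plet1, was at 3.15, 2.82 and 2.52 and 0.977, 0.292 and 0.420 CPM (log2 fold change -2.32 ± 0.47), and as no strand setting is given its reads cannot be told from those of its partner. Spo11, the meiotic nuclease, had the largest fall by the rule (-4.23 ± 1.01) from few reads, with 16, 5 and 94 raw counts in WT IMQ mice 1, 2 and 3 and 4, 0 and 1 in KO-labelled IMQ mice 1, 2 and 3.

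In the opposite direction, genes of the dermal matrix were higher in the KO-labelled IMQ mice. Of 30 collagen genes 13 rose and 0 fell (median 0.73 on the log2 scale). Of 22 fibroblast markers 8 rose and 0 fell, with a median of 0.84 and no negative value. Some genes stand in both lists. Col1a1, the main chain of type I collagen, was at 1889, 1847 and 2077 CPM in WT IMQ mice 1, 2 and 3 and 4839, 4506 and 4283 CPM in KO-labelled IMQ mice 1, 2 and 3, 2.34-fold higher (log2 fold change 1.23 ± 0.15, adjusted p 0.0215). Its partner Col1a2 was at 1921, 1981 and 2054 and 4294, 4276 and 3817 CPM (log2 fold change 1.06 ± 0.17, adjusted p 0.0219). Col3a1 was at 4079, 3993 and 4067 and 7646, 7931 and 8897 CPM (log2 fold change 1.01 ± 0.22, adjusted p 0.0349). Col5a1 was at 215, 228 and 253 and 535, 571 and 579 CPM (log2 fold change 1.28 ± 0.21, adjusted p 0.0219). Col14a1, a fibril-associated collagen, was at 86.7, 91.0 and 84.3 and 197, 237 and 197 CPM (log2 fold change 1.27 ± 0.18, adjusted p 0.0215). With WT IMQ mouse 2 left out, 15 of the 30 collagens and 12 of the 22 fibroblast markers rose. Here WT IMQ mouse 2 did not stand apart from WT IMQ mice 1 and 3.

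The controls of the genotypes overlapped in Col1a1, at 2807, 2978 and 2291 CPM in WT and 2122, 2701 and 2518 CPM in KO-labelled mice, and its IMQ values in the WT mice were below and those in the KO-labelled mice above all of them. The interaction in Col1a1 was 1.37 (adjusted p 0.0195). The defining markers Dcn and Pdgfra did not pass. Dcn (decorin), a broad fibroblast marker, was at 1533, 2021 and 1609 and 2040.0, 2515 and 2464 CPM (log2 fold change 0.44 ± 0.23, adjusted p 0.237). Pdgfra was at 148, 192 and 153 and 172, 224 and 322 CPM, with overlap (log2 fold change 0.54 ± 0.22, adjusted p 0.148). Rcn3, an endoplasmic reticulum protein needed for collagen production, was among the 5 smallest p-values (40.0, 44.6 and 51.1 and 91.4, 89.9 and 95.4 CPM, log2 fold change 1.03 ± 0.14, adjusted p 0.0215), as was the amino acid transporter Slc16a10 (15.9, 18.7 and 15.3 and 30.8, 33.0 and 36.0 CPM, log2 fold change 1.00 ± 0.14, adjusted p 0.0215). Crabp1, a retinoic acid binding protein of some dermal fibroblasts, was at 30.8, 32.5 and 36.7 and 68.4, 52.8 and 58.9 CPM (log2 fold change 0.85 ± 0.14, adjusted p 0.0219). Of 22 matrix metalloproteinases and inhibitors, Mmp23 rose (10.3, 12.8 and 12.6 and 24.1, 25.6 and 26.2 CPM, log2 fold change 1.09 ± 0.27, adjusted p 0.0464), and Mmp2 was at 290.3, 389 and 312 and 496, 602 and 596 CPM (log2 fold change 0.77 ± 0.21, adjusted p 0.0546). Without WT IMQ mouse 2, 6 of the 22 rose.

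Cxcr4, the receptor of the chemokine CXCL12 on leukocytes and endothelial cells, had the smallest p of all genes, at 22.7, 24.8 and 24.8 CPM in the WT and 58.0, 55.5 and 64.1 CPM in the KO-labelled IMQ mice (log2 fold change 1.30 ± 0.13, adjusted p 0.00770). The values within each group were close together and the groups far apart. In the controls it was at 32.2, 31.1 and 32.3 CPM in WT and 27.6, 23.6 and 19.6 CPM in KO-labelled mice, the opposite order, and the interaction was 1.73 (adjusted p 0.00695). Its ligand Cxcl12 was at 271, 460.4 and 317 and 414, 578 and 732 CPM, with overlap (log2 fold change 0.72 ± 0.28, adjusted p 0.131).

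Genes of antigen presentation by MHC class II had positive log2 fold changes. Of 11 MHC class II genes 2 rose and 0 fell, all 11 had positive log2 fold changes and the median was 1.39. H2-Ab1, the beta chain of I-A, was at 77.8, 197 and 74.3 CPM in WT IMQ mice 1, 2 and 3 and 436, 304 and 336 CPM in KO-labelled IMQ mice 1, 2 and 3 (log2 fold change 1.62 ± 0.41, adjusted p 0.0487), with WT IMQ mouse 2 between the other WT mice and the KO-labelled mice. Cd74, the invariant chain, was at 199, 497 and 165 and 976, 659 and 790.0 CPM (log2 fold change 1.49 ± 0.42, adjusted p 0.0612). Ciita, the transcriptional activator of these genes, was at 7.51, 9.95 and 8.09 and 20.6, 17.7 and 17.4 CPM (log2 fold change 1.13 ± 0.25, adjusted p 0.0349), and here WT IMQ mouse 2 was close to the other WT mice. In the fit without WT IMQ mouse 2, 8 of the 11 rose and the median was 1.88. All IMQ mice were below the WT controls in H2-Ab1 (730.3, 1110.0 and 586 CPM). In bulk skin, a different number of cells of a type and a different RNA level per cell cannot be told apart. This holds here, for the keratinocyte, matrix and fibroblast genes above and for each marker list that follows.

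Markers of myeloid cells mostly had positive log2 fold changes, and few passed. Of 29 macrophage markers 28 had positive log2 fold changes (median 0.64) and 2 rose: Retnla, a marker of alternatively activated macrophages, and Mertk, a receptor for dying cells. Retnla was at 8.72, 5.65 and 8.19 CPM in the WT and 38.0, 112 and 47.1 CPM in the KO-labelled IMQ mice (log2 fold change 3.12 ± 0.61, adjusted p 0.0276), all below the controls of either genotype (939.6, 780.0 and 322 and 494, 123 and 185 CPM). With WT IMQ mouse 2 left out, 3 of the 29 rose. Mertk was at 38.2, 50.2 and 48.0 and 83.2, 77.9 and 82.3 CPM (log2 fold change 0.84 ± 0.22, adjusted p 0.0495). Csf1r, the macrophage growth factor receptor, was at 203, 365 and 203 and 488, 556 and 567 CPM (log2 fold change 1.06 ± 0.38, adjusted p 0.105). Of 14 Langerhans and dendritic cell markers 2 rose, Siglech of plasmacytoid dendritic cells (0.485, 1.14 and 0.630 and 4.46, 2.05 and 2.52 CPM, log2 fold change 2.00 ± 0.48, adjusted p 0.0429) and the dendritic cell growth factor receptor Flt3 (3.64, 5.85 and 2.76 and 9.59, 8.83 and 11.5 CPM, log2 fold change 1.30 ± 0.32, adjusted p 0.0445). Without WT IMQ mouse 2, 3 of the 14 rose. Cd207 (langerin), the defining Langerhans marker, was at 4.73, 7.80 and 4.26 and 9.28, 4.44 and 6.66 CPM, with overlap (log2 fold change 0.29 ± 0.33, adjusted p 0.601). The summed level of the macrophage list was between 5449.8 and 8621 CPM in the WT and between 7970.1 and 11297 CPM in the KO-labelled IMQ mice.

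Neutrophil markers did not separate the groups clearly. Of 21 tested, 1 rose and 0 fell: Camp, the cathelicidin of neutrophil granules, at 11, 0 and 14 raw counts in the WT and 86, 34 and 62 in the KO-labelled IMQ mice (log2 fold change 2.97 ± 0.76, adjusted p 0.0489). Ngp, another granule gene, was at 4.06, 2.29 and 4.99 and 10.9, 6.20 and 21.5 CPM (log2 fold change 1.76 ± 0.49, adjusted p 0.0605). Ly6g, the defining surface marker, was at 0.424, 0.538 and 0.727 and 0.733, 1.05 and 0.840 CPM (log2 fold change 0.62 ± 0.65, adjusted p 0.561). Of the 21 markers 17 had positive and 4 negative log2 fold changes (median 0.43), with 3 higher and 0 lower in edgeR at an unadjusted p under 0.05. The summed level of the list, which holds S100a8 and S100a9, lay between 9258 and 13492 CPM in the WT and between 5647 and 12779 CPM in the KO-labelled IMQ mice.

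Of 24 T cell markers 21 had positive log2 fold changes (median 0.54), and the called member, Trbc2, a constant segment of the T cell receptor beta chain, went the other way (31.2, 26.3 and 31.0 and 17.6, 17.4 and 19.7 CPM, log2 fold change -0.69 ± 0.16, adjusted p 0.0404). In the fit without WT IMQ mouse 2, 5 of the 24 rose and 1 fell, and the median was 1.07. Cd4 was at 9.69, 25.1 and 12.9 and 33.8, 24.7 and 28.5 CPM, with overlap (log2 fold change 0.87 ± 0.38, adjusted p 0.167). Of 14 mast cell markers, all positive, Kit rose (21.3, 27.1 and 19.9 and 40.9, 36.1 and 37.4 CPM, log2 fold change 0.74 ± 0.15, adjusted p 0.0293), and 3 rose without WT IMQ mouse 2. The mast cell proteases Cma1 (78.0, 94.6 and 81.9 and 159, 157 and 124 CPM, log2 fold change 0.79 ± 0.23, adjusted p 0.0690) and Tpsb2 (53.4, 70.4 and 58.9 and 111, 131 and 101 CPM, log2 fold change 0.91 ± 0.25, adjusted p 0.0596) did not pass. The immunoglobulin segment Igkv19-93 had the largest rise by the rule (0.0606, 0.538 and 0.581 and 5.25, 2.46 and 13.6 CPM, log2 fold change 4.14 ± 0.81, adjusted p 0.0276). The B lineage list had 0 called of 14 in edgeR (2 higher at an unadjusted p under 0.05, and 2 higher in DESeq2), and Ighm, the IgM heavy chain, was at 51.9, 243 and 60.7 and 166, 267 and 276 CPM, with WT IMQ mouse 2 in the KO-labelled range. Without that mouse 3 of the 14 rose.

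Genes that type I interferon induces and Toll-like receptors mostly had positive log2 fold changes, without passing adjustment. Of 32 interferon-stimulated genes 31 had positive log2 fold changes (median 0.86), and 0 passed in edgeR (13 higher at an unadjusted p under 0.05, and 9 higher in DESeq2), with 2 higher without WT IMQ mouse 2. Isg15 was at 3.33, 5.65 and 4.46 CPM in the WT and 11.6, 9.997 and 9.23 CPM in the KO-labelled IMQ mice (log2 fold change 1.2 ± 0.43, adjusted p 0.108). Usp18, the interferon receptor inhibitor, was at 2.30, 2.15 and 2.57 and 7.08, 7.31 and 5.82 CPM (log2 fold change 1.52 ± 0.45, adjusted p 0.0709). Both were without overlap. The same list was higher in the KO-labelled than in the WT controls, by a median of 0.87, with Isg15 at 14.3, 24.7 and 7.23 and 51.2, 33.4 and 82.4 CPM. Cxcl10, an interferon-induced chemokine, differed between the controls (3.65, 4.64 and 5.58 CPM in WT and 99.7, 46.9 and 171 CPM in KO-labelled mice, adjusted p 0.0132) and overlapped with IMQ (2.36, 3.63 and 1.70 and 3.91, 4.79 and 1.74 CPM), an interaction of -4.06 (adjusted p 0.0247). Of 16 genes of Toll-like receptors and the TLR7 pathway 0 passed in edgeR (3 higher at an unadjusted p under 0.05, and 1 higher in DESeq2). Tlr7, the receptor of IMQ, was at 26.8, 46.0 and 25.5 and 74.6, 76.7 and 85.6 CPM, without overlap (log2 fold change 1.27 ± 0.45, adjusted p 0.107).

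**Figure D4:**
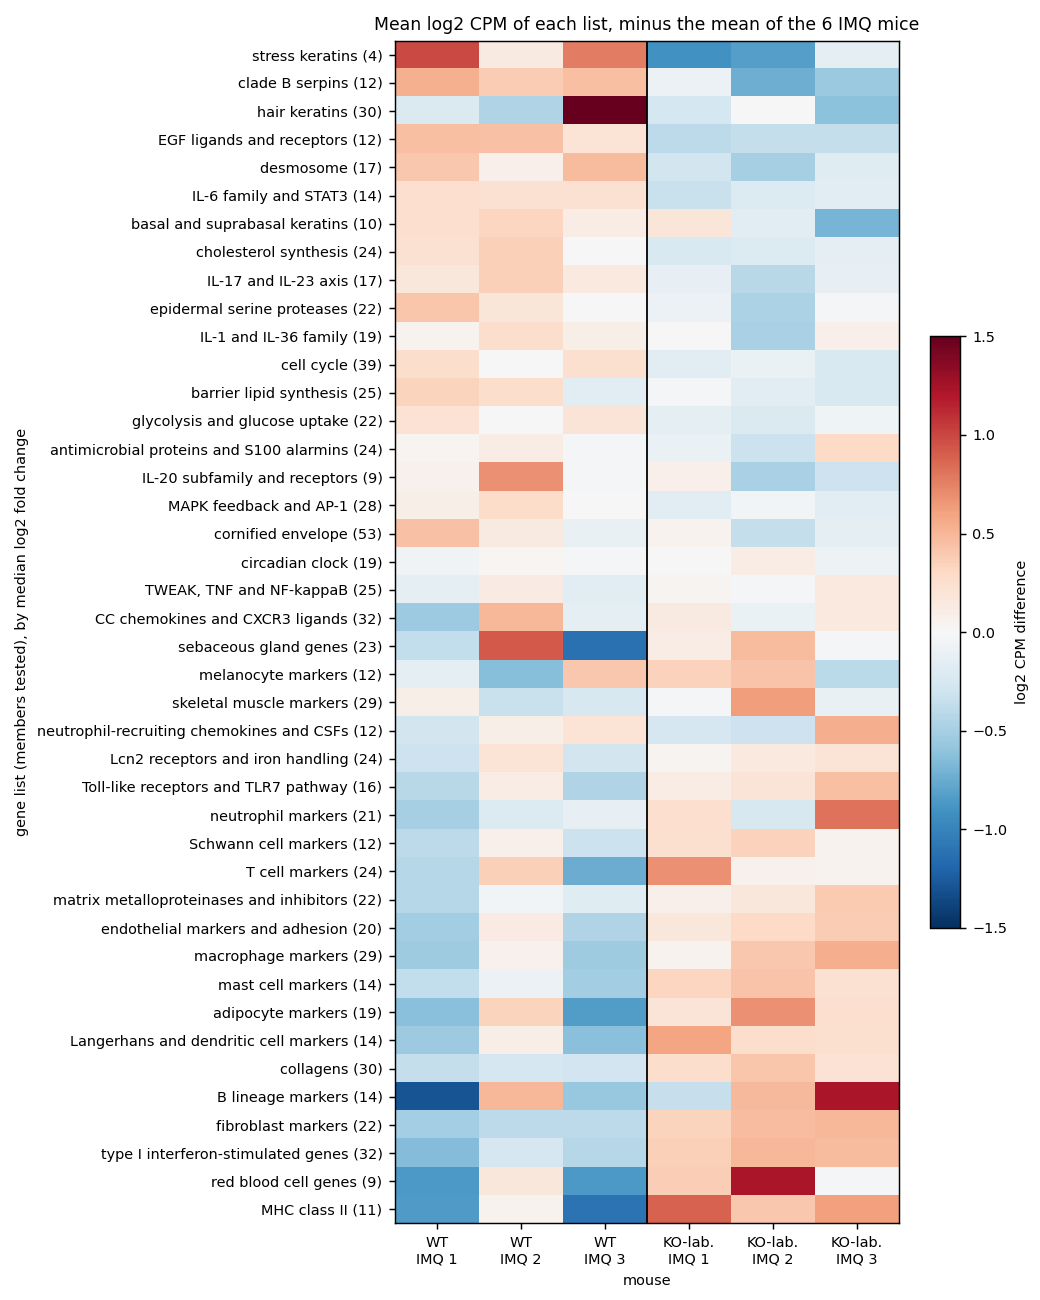
Mean log2 CPM of the tested members of each gene list in each IMQ mouse, minus the mean of the 6 mice (colour), with lists on the y axis ordered by median log2 fold change and mice on the x axis. The fibroblast and collagen lists separate all 3 WT from all 3 KO-labelled mice, while for adipocyte, sebaceous gland and macrophage genes WT IMQ mouse 2 is higher than WT IMQ mice 1 and 3.

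Lists of other cell types in whole skin moved with the split within the WT group. Of 19 adipocyte markers 0 passed in edgeR (8 higher at an unadjusted p under 0.05, and 4 higher in DESeq2). Their mean log2 CPM was 7.08, 8.03 and 6.87 in WT IMQ mice 1, 2 and 3 and 7.90, 8.38 and 7.95 in KO-labelled IMQ mice 1, 2 and 3. Lep (leptin) was at 4.30, 7.53 and 2.76 and 10.7, 54.0 and 14.5 CPM (log2 fold change 2.46 ± 0.67, adjusted p 0.0581). Adipoq (adiponectin) was at 114, 276 and 100.2 and 259, 299 and 226 CPM (log2 fold change 0.68 ± 0.38, adjusted p 0.276). The 23 sebaceous gland genes included 0 called in edgeR (3 higher and 2 lower at an unadjusted p under 0.05, and 1 higher and 1 lower in DESeq2) and had a mean log2 CPM of 5.05, 6.34 and 4.30 in the WT mice and between 5.41 and 5.90 in the KO-labelled mice. Of 20 endothelial genes 18 had positive log2 fold changes and 0 passed in edgeR (9 higher at an unadjusted p under 0.05, and 5 higher in DESeq2), with Vwf at 84.0, 146 and 80.6 and 208, 202 and 178 CPM (log2 fold change 0.92 ± 0.26, adjusted p 0.0627). With WT IMQ mouse 2 left out, 10 of 19 adipocyte, 7 of 23 sebaceous gland and 9 of 20 endothelial genes passed, all higher.

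Red blood cell genes had a median of 1.06 over 9 genes, Schwann cell markers 0.45 over 12, skeletal muscle markers 0.22 over 29, melanocyte markers 0.21 over 12 and hair keratins and hair shaft regulators -0.82 over 30. In edgeR 0 genes of these lists passed, with 2, 4, 5, 0 and 0 of them at an unadjusted p under 0.05 and 0, 2, 2, 0 and 0 called in DESeq2. When WT IMQ mouse 2 was left out, 3 Schwann cell markers rose and 1 skeletal muscle marker fell. WT IMQ mouse 3 was the highest in hair genes, with a mean log2 CPM of 1.31 against values between -0.84 and -0.21 in the other IMQ mice, and without this mouse the sign of the median changed.

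In the list of Lcn2 receptors and iron handling, 1 of 24 tested genes rose and 1 fell, and 5 rose and 2 fell without WT IMQ mouse 2. Hpx (hemopexin), which binds free heme, was at 4.30, 12.1 and 2.62 CPM in the WT and 18.3, 31.2 and 21.6 CPM in the KO-labelled IMQ mice (log2 fold change 1.91 ± 0.47, adjusted p 0.0464), and near or under 1 CPM in both control groups (1.02, 0.731 and 0.532 and 0.526, 1.01 and 0.670 CPM). Tfrc, the transferrin receptor, was at 111, 84.2 and 88.5 and 68.6, 43.1 and 45.8 CPM (log2 fold change -0.85 ± 0.19, adjusted p 0.0353). Slc22a17, the Lcn2 receptor, was at 13.5, 6.59 and 16.8 and 7.27, 8.01 and 8.34 CPM, with overlap (log2 fold change -0.65 ± 0.27, adjusted p 0.158), and Lrp2 and Mc4r, other proposed receptors, had at most 2 raw counts in each IMQ library. Among the study's own genes, Tgfb1 was at 47.7, 87.2 and 50.04 and 99.6, 117 and 127 CPM (log2 fold change 0.90 ± 0.24, adjusted p 0.0525). Tnf was at 2.30, 6.45 and 6.59 and 4.09, 1.93 and 3.30 CPM (log2 fold change -0.72 ± 0.43, adjusted p 0.305). None of the 21 tested genes that the study names passed adjustment in edgeR (3 higher and 8 lower at an unadjusted p under 0.05, and 2 higher and 6 lower in DESeq2), while 2 rose and 4 fell without WT IMQ mouse 2. The study reported several of them from these same samples and others from further assays, so together they are not independent evidence of a direction.

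The other large rises by the rule were genes of plasma proteins, cartilage, chromatin and signalling. Alb (albumin) was at 1.94, 3.09 and 0.678 CPM in the WT and 7.51, 11.6 and 6.90 CPM in the KO-labelled IMQ mice (log2 fold change 2.21 ± 0.51, adjusted p 0.0399). Npr3, the clearance receptor of natriuretic peptides, was at 5.03, 3.97 and 4.12 and 11.2, 30.9 and 8.99 CPM (log2 fold change 1.96 ± 0.47, adjusted p 0.0431). Cnmd (chondromodulin) was at 0.182, 0.605 and 0.194 and 1.65, 2.98 and 1.14 CPM (log2 fold change 2.57 ± 0.66). Prdm8 was at 0.788, 0.739 and 0.920 and 2.503, 5.61 and 3.00 CPM (log2 fold change 2.17 ± 0.56). The insulin receptor substrate Irs3 was at 0.242, 0.605 and 0.436 and 1.28, 2.10 and 1.62 CPM (log2 fold change 1.96 ± 0.43), and the sodium-proton exchanger Slc9a7 at 0.485, 0.336 and 0.630 and 1.65, 1.11 and 3.00 CPM (log2 fold change 1.95 ± 0.46). Hist1h4h, a histone H4 gene with near-identical copies, was at 0.666, 0.807 and 0.823 and 4.82, 3.22 and 2.58 CPM (log2 fold change 2.20 ± 0.38, adjusted p 0.0219). The predicted gene Gm9855, among the 5 smallest p-values, was at 2.00, 0.807 and 1.94 and 12.5, 9.12 and 9.77 CPM (log2 fold change 2.71 ± 0.38, adjusted p 0.0215).

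Genes near Lcn2 on chromosome 2 can keep the strain of origin of a deleted allele. Of 283 tested genes within 10 Mb of it, 6 rose and 10 fell, which is 5.65% against 4.78% of all genes tested.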

How the data were processed

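The data were bulk RNA-seq libraries of back skin, 12 in 4 groups of 3 (WT and KO-labelled, control and IMQ), grouped by the sample labels. The deposited table gives unnormalized raw counts for 56923 Ensembl genes in every library, from paired reads of 150 bp. The submitters' processing notes name HISAT and the build mm8. The counting tool, its annotation and its strand setting are not given in the sources used here. GENCODE M21 (GRCm38) holds 52073 of the identifiers (91.5%) and gave names and positions, although the named build is another one, and 342 of the tested genes have no name in it.

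Libraries held between 16448226 and 28592110 counts, with 5.49% to 7.62% in the 10 most abundant genes. A floor of 3 counts is between 0.0985 and 0.202 CPM and covers counting error only, since PCR copies cannot be told from separate molecules without identifiers. Within the IMQ groups no library pair agreed within sampling noise.

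Counts were normalized by TMM and fitted with edgeR 4.0.16 (limma 3.58.1, R 4.3.3) as 4 group means over all 12 mice, after filterByExpr (minimum count 10, minimum total 15), with a robust quasi-likelihood fit (common biological coefficient of variation 0.253). The contrast was KO-labelled IMQ minus WT IMQ, with Benjamini-Hochberg adjustment over the 18529 genes tested. Errors beside log2 fold changes are standard errors of the fit (n = 3 per group). The interaction was the genotype difference with IMQ minus that in the controls. Values of lists are means of log2 CPM with a prior count of 2.

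The comparison, the 44 gene lists and the tests were chosen with earlier results of these data known. Named genes were Lcn2 and the genes the study names, the 12 largest rises and 12 largest falls with an adjusted p under 0.05, no overlap, at least 1 CPM over the IMQ mice and no predicted-gene or pseudogene name, and the 5 smallest p-values in each direction. In each list some of the up to 4 members of smallest p and of the defining markers were named too. Other members that met this rule are not given, so the members named do not stand for a whole list. Col3a1, Cxcl2, Dcn, Pdgfra, Isg15, Il17f, Il22, S100a8, S100a9, Mki67, Adipoq, Cd207 and Il20 were named as well-known members of their lists after their values were seen. Alternatives were RLE size factors, DESeq2 1.42.0 on 12 mice or on the IMQ mice, edgeR on the IMQ mice, no filter (at least 1 count), a mean of at least 1 CPM, the replicate number as a block, and each mouse left out. The scripts were tested on simulated counts. Promoter windows are from RefSeq (GRCm38.p6) and were matched by symbol for 12647 of 18184 named tested genes. Plotting used matplotlib 3.10.9 in Python 3.11.15.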

Additional observations from a re-analysis of the deposited data

Results flagged for a closer look

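Each mouse group holds 3 samples, too few for a check of single samples far from the others. The genotype difference with IMQ was compared with that in the controls by the interaction term of the edgeR fit, which is negative where KO-labelled against WT lay lower with IMQ than in the controls. Of 121 genes named in the text 42 had an interaction with an adjusted p under 0.05, between 0.00695 and 0.0484, as did 398 of all genes tested. Many of the 121 were named for a large difference with IMQ, which is 1 of the 2 terms of the interaction, so their number is not an independent result. In 41 of the 42 the fitted differences had opposite signs with IMQ and in the controls, and the exception was Cxcl10. Choosing genes by a large IMQ difference and by the interaction favours opposite signs, so this is not an independent result either. The control differences ran in size from small ones (0.087 for Bhlhe40) to large ones (4.52 for Cxcl10, then 2.83 for Il17f).

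The interaction was negative for 26 of these genes. Among cytokines and their receptors it was -5.44 for Il17c, -3.54 for Il17f, -3.23 for Ccl20, -2.46 for Clcf1, -1.63 for Il1a, -1.29 for Il1rn and -1.27 for Osmr. Cxcl10 had -4.06, with a control difference of 4.52 and an IMQ difference of 0.46. The EGF receptor ligands Areg and Epgn had -2.27 and -2.36. Regulators of inflammatory transcripts and transcription had -1.81 (Zc3h12a), -0.85 (Rel) and -0.81 (Bhlhe40). Epidermal proteases, their inhibitors and envelope genes had -2.00 (Serpinb2), -1.95 (Serpinb3b), -1.71 (Prss27), -1.31 (Klk11) and -1.57 (Tgm1). The gasdermin Gsdma3 had -2.76. The others were Rin1 at -1.35, Pfkp at -1.08, Mroh3 at -3.95, Ccdc187 at -2.45, Mir17hg at -2.46, Plet1os at -2.80 and E330009J07Rik at -1.19.

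The interaction was positive for 16 genes. Collagens had 1.37 (Col1a1), 1.31 (Col1a2), 1.36 (Col3a1), 1.52 (Col5a1) and 1.63 (Col14a1), and other genes of matrix and its turnover had 1.36 (Mmp2), 1.79 (Mmp23), 1.40 (Rcn3) and 1.56 (Tgfb1). Immune genes had 4.47 (Retnla), 1.73 (Cxcr4) and 1.58 (Ciita). The others were Crabp1 at 1.01, Slc16a10 at 1.10, Hist1h4h at 2.69 and Gm9855 at 3.23.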

How the results depend on the processing

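Of 405 higher and 481 lower genes by adjusted p, DESeq2 on 12 mice gave 1198 and 1261, DESeq2 on the IMQ mice 1576 and 1351, edgeR on the IMQ mice 1077 and 817, and the fit with the replicate block 77 and 59. Leaving out 1 mouse moved the higher genes between 0 and 1288 and the lower genes between 0 and 1438, with the most calls without WT IMQ mouse 2 and the fewest without WT IMQ mouse 1 or 3 or KO-labelled IMQ mouse 3. By fold above 2 and unadjusted p, 621 lower genes became 1003 with no filter and 410 at a mean of at least 1 CPM, and leaving out 1 mouse gave 422 to 1108 higher and 414 to 1007 lower genes. With RLE size factors each of these counts stayed within 1.5 times. All 69 called genes of the text kept their direction in each setting that tested them, and the calls kept numbered 68 with RLE, 58 with no filter and 26 with the replicate block. As these genes were called on the same mice, their kept direction is no separate check. Of the uncalled genes of the text, 22 of 51 passed adjustment in DESeq2 on 12 mice and 34 of 51 in DESeq2 on the IMQ mice. In edgeR on the IMQ mice 25 of 52 passed, so whether a gene of the text passed depends on the fit. Among the 52 uncalled genes of the text, leaving out 1 mouse changed the sign of the log2 fold change in Cd207 (-0.0021 to 0.60), Cxcl2 (-0.87 to 0.35), Il1b (-0.61 to 0.18), S100a8 (-0.15 to 0.56) and S100a9 (-0.47 to 0.14). The cause was not tested. Same-numbered IMQ mice deviated from their group means with correlations of 0.0284, 0.0875 and 0.0489 over all genes tested, which is little shared deviation. Whether same-numbered mice shared a litter was not tested. Of 44 list medians, 44 kept their sign with RLE and 40 without WT IMQ mouse 1, 2 or 3 each.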

Other observations

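The median log2 fold change differed between classes of genes in the annotation, a pattern seen after the values were known. Beside the shares that fell, the share over all genes tested is 2.6%, and that of genes that rose 2.19%. The median was -0.38 over 558 antisense genes, of which 12 fell (2.15%), and -0.29 over 547 long intergenic RNAs, of which 7 fell (1.28%). It was -0.56 over 320 unverified transcripts (TEC), of which 13 fell (4.06%), and -0.89 over 43 transcripts inside introns on the sense strand, of which 2 fell (4.65%). Over 15225 protein-coding genes it was 0.008, and 423 fell (2.78%). The 22 small nucleolar RNAs were at a mean log2 CPM of 0.45 and 0.37 in WT IMQ mice 1 and 3 and between -1.23 and -0.60 in WT IMQ mouse 2 and the KO-labelled IMQ mice, with 0 called in edgeR (7 lower at an unadjusted p under 0.05) and 4 called lower in DESeq2. The 6 control mice lay between -1.25 and -0.30 on the same scale. The share of counts on mitochondrial genes was 2.89%, 3.39% and 3.10% in WT IMQ mice 1, 2 and 3 and 3.35%, 3.02% and 2.94% in KO-labelled IMQ mice 1, 2 and 3.

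Immunoglobulin variable segments had a median of 1.10 over 91 tested genes, with 2 that rose (2.20%, near the share of all genes) and 0 that fell in edgeR (11 and 0 at an unadjusted p under 0.05, and 7 and 0 called in DESeq2). Their mean log2 CPM was -1.95, -0.22 and -1.76 in WT IMQ mice 1, 2 and 3 and -1.12, -0.42 and 0.64 in KO-labelled IMQ mice 1, 2 and 3, so that WT IMQ mouse 2 lay above KO-labelled mice 1 and 2. Reads of these segments can be split between near-identical copies.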
